A study of Mus musculus with 8 samples.

Results

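Lysosomes digest what a macrophage takes up, and the genes described here are those of their acid pump, a panel of their hydrolases and membrane proteins, and the transcription factors of the MiT family. Members were all genes whose array symbol begins with Atp6v or Atp6ap, which gave 25 genes, and 24 further genes chosen by name, all of which were measured. These 49 genes, of 21442 on the arrays, were read from 55 probe sets, and the probe set with the highest mean stood for a gene that had several. Expression was measured on 8 Affymetrix arrays of RNA from myeloid cells of Cx3cr1gfp/+ C57BL/6 mice, which carry a green fluorescent protein in place of 1 copy of the chemokine receptor gene Cx3cr1. Untreated mice supplied 4 sorted populations with 2 arrays each. F4/80-high tumour-associated macrophages (F4/80-high TAM) and Ly6C-high tumour-infiltrating macrophages (Ly6C-high TAM) were taken from orthotopic colorectal tumours, that is, tumours grown in the organ of origin. Steady-state macrophages of the colonic lamina propria (colon macrophages) came from colon, and Ly6C-high monocytes (spleen monocytes) from spleen. All tissues were digested with Collagenase VIII and stained before sorting. Both replicates of each tumour population were labelled male, while replicate 2 of colon macrophages was labelled female and replicate 2 of spleen monocytes mixed. The age of the mice and the cells that formed the tumours are not given in the labels, nor do the labels tie replicates to single animals or pools, so p-values cover only the spread between these samples, which may be technical.

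A lysosome keeps its lumen acid with the vacuolar proton pump, or V-ATPase. In this pump the cytosolic V1 sector splits ATP and turns a rotor, and the membrane V0 sector carries protons inward. The acid activates hydrolases that take apart glycans, glycosaminoglycans, lipids and proteins, and the inherited loss of many of these enzymes causes a storage disease. TFEB, TFE3 and MITF are related transcription factors that enter the nucleus when nutrient signalling at the lysosome is low and bind short E-box elements near the start of many lysosomal genes.

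Values are log2 expression, for which a difference of 1 is a 2-fold change, and they compare 1 gene between arrays, not 1 gene with another. The sort markers were measured on every array. Adgre1, which encodes F4/80, had 12.49 and 12.31 in F4/80-high TAM, 11.93 and 11.15 in Ly6C-high TAM, 12.92 and 12.83 in colon macrophages and 12.07 and 12.02 in spleen monocytes. Ly6c2, which encodes Ly6C, had 10.91 and 11.57 in F4/80-high TAM, 13.01 and 12.71 in Ly6C-high TAM, 9.89 and 10.16 in colon macrophages and 12.91 and 12.94 in spleen monocytes. Cd68, a lysosomal glycoprotein of macrophages, lay between 12.81 and 13.03 on all arrays. The colon arrays carried signal of epithelial markers, with a mean of 24 epithelial markers of 10.82 and 11.58 in colon macrophages, against 6.94 and 6.37 in spleen monocytes, and all 24 markers passed the test. Replicate 2 of both tumour populations also carried more signal of epithelial and fibroblast markers. The same epithelial mean was 6.75 and 8.38 in F4/80-high TAM and 6.87 and 8.88 in Ly6C-high TAM. The mean of 15 fibroblast markers was 8.06 and 9.32 in F4/80-high TAM, 8.51 and 10.04 in Ly6C-high TAM, 8.64 and 8.78 in colon macrophages and 6.79 and 6.74 in spleen monocytes. Means of T and NK cell markers and of B and plasma cell markers were also higher on replicate 2 of both tumour populations. So were those of endothelial, smooth muscle and erythroid markers. The smooth muscle mean, for example, was 6.617 and 7.309 in F4/80-high TAM and 6.659 and 7.733 in Ly6C-high TAM. Neutrophil, dendritic cell, and eosinophil and mast cell markers did not follow the replicate number in this way. The mean of 11 neutrophil markers was 6.644 and 7.273 in F4/80-high TAM but 7.645 and 7.009 in Ly6C-high TAM. That of 8 dendritic cell markers was 6.803 and 6.904 in F4/80-high TAM and 7.196 and 6.737 in Ly6C-high TAM.

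Set beside all genes of any signal, the lysosomal genes varied about as much across the 4 populations. The population means of 41 of the 49 members spanned less than 1 on the log2 scale, a share of 83.7%, beside 79.5% of all genes. To pass the test, a member needed a limma p, adjusted over all genes by Benjamini-Hochberg, of at most 0.05 and at least a 2-fold difference. On that measure 8 members passed in 1 or more of the 6 pairwise comparisons. That share of 16.3% equalled the 16.3% of all genes that passed in at least 1 comparison. The 8 were Atp6v0d2, Atp6v0a1, Atp6ap2, Naglu, Gla, Gaa, Ids and Tpp1. In cells sorted in bulk, fewer cells of a type and less RNA per cell cannot be told apart. On the 6 arrays labelled male alone, which hold 1 array each of colon macrophages and spleen monocytes, 0 members passed in limma, with 12 higher and 2 lower in F4/80-high TAM than in spleen monocytes at an unadjusted p under 0.05. The comparisons share populations, so their counts are not independent of each other.

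**Figure D1:**
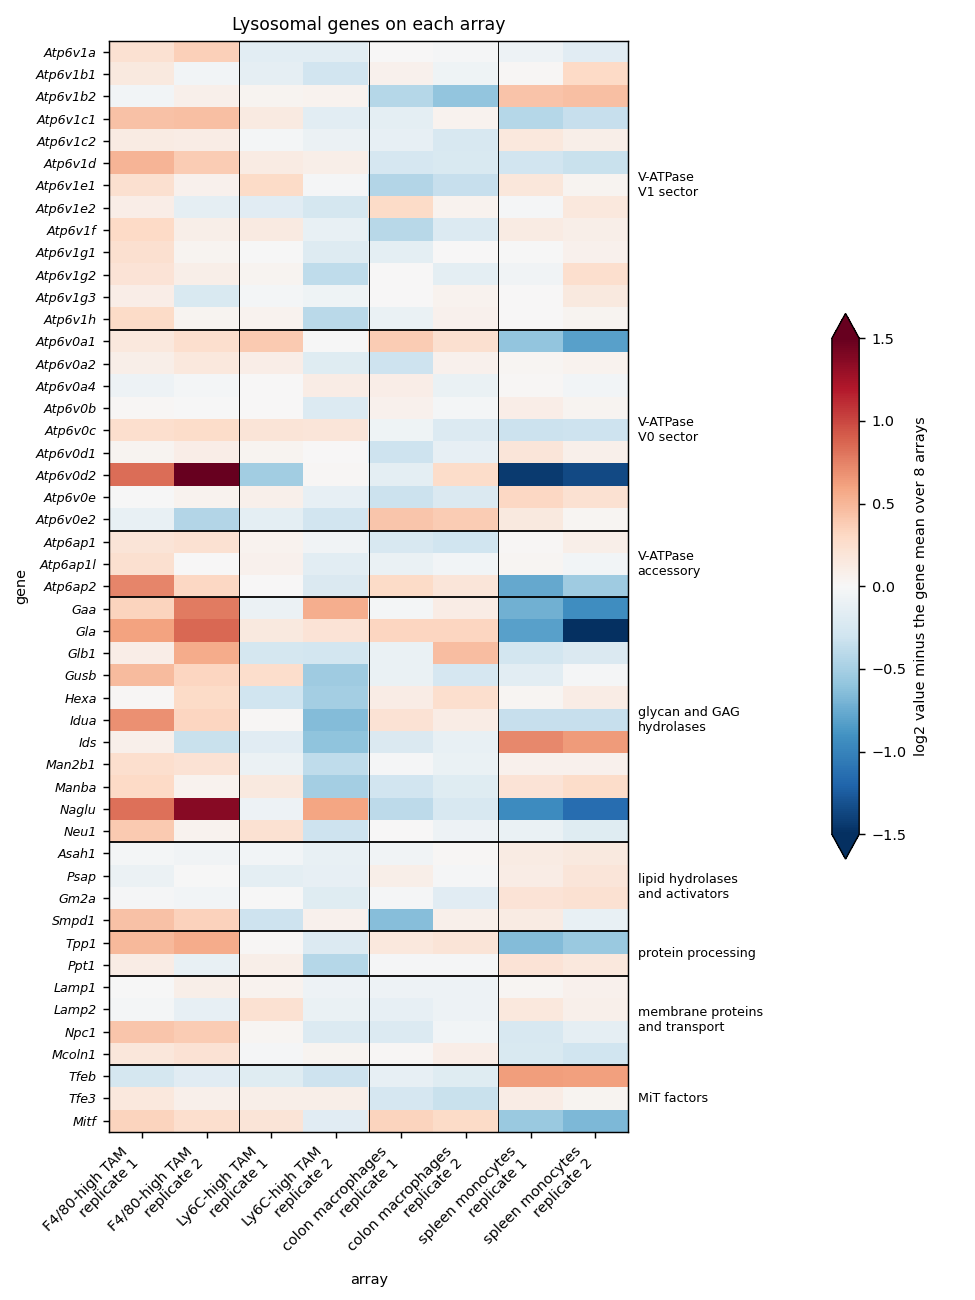
Heat map of the 49 genes, in rows grouped by role, on the 8 arrays in columns, coloured by the log2 value minus the gene's mean over all arrays. Colours stop at a deviation of 1.5 either way, beyond which lie Atp6v0d2 in F4/80-high TAM replicate 2 and Gla in spleen monocyte replicate 2. Most rows are pale.

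The larger differences were between F4/80-high TAM and spleen monocytes, and they lay in hydrolases and single pump subunits. In this comparison 6 members, 12.2%, rose and 0 fell, while 4.58% of all genes rose and 2.37% fell. Without the fold limit 30.6% of members passed, beside 11.7% of all genes. The members' array signal was mostly high, and 41 of them lay above the median gene. Of the genes above that median 11.8% passed in either direction with the fold limit, close to the members' 12.2%, and 19.8% without it.

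In colon macrophages against spleen monocytes 2 members rose and 0 fell, while 6.93% of all genes rose and 4% fell. In Ly6C-high TAM against spleen monocytes 2 members rose and 1 fell, while 2.88% of all genes rose and 1.62% fell. In F4/80-high TAM against colon macrophages 1 member rose and 0 fell, while 2.67% of all genes rose and 3.72% fell. No member passed in F4/80-high TAM against Ly6C-high TAM, where 0.168% of all genes rose and 0.0979% fell, or in Ly6C-high TAM against colon macrophages, where 2.74% rose and 4.16% fell. Of the genes above the median signal, 16% passed in either direction in colon macrophages against spleen monocytes. That share was 7.63% in Ly6C-high TAM against spleen monocytes and 8.11% in F4/80-high TAM against colon macrophages. It was 0.485% between the tumour populations and 8.95% in Ly6C-high TAM against colon macrophages. Each of these shares exceeded the share of members that passed. An unadjusted limma p under 0.05 was found for 12 members between F4/80-high TAM and Ly6C-high TAM, 24.5% beside 8.57% of all genes, and for 9 between Ly6C-high TAM and colon macrophages, 18.4% beside 24.9%. Between F4/80-high TAM and spleen monocytes it was found for 20 members, 40.8% beside 25.2% of all genes, and 4 of them were lower in F4/80-high TAM. Between colon macrophages and spleen monocytes it was also found for 20, 40.8% beside 30.5%, and 11 of them were lower in colon macrophages. Without the fold limit the share of members that passed was 18.4% in colon macrophages against spleen monocytes, beside 18.5% of all genes, and 12.2% in Ly6C-high TAM against spleen monocytes, beside 6.74%. It was 10.2% in F4/80-high TAM against colon macrophages, beside 12.3%, and 6.12% in Ly6C-high TAM against colon macrophages, beside 11.4%. It was 0% between the tumour populations, beside 0.275%.

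Separation of the arrays gives the direction of the members without a threshold. Both F4/80-high TAM arrays lay above both colon arrays in 31 members and below them in 1, Atp6v0e2, and 65.3% of members did not overlap, beside 50.8% of all genes. Against spleen monocytes F4/80-high TAM lay above in 23 members and below in 11, 69.4% beside 60.7%. Ly6C-high TAM lay above spleen monocytes in 12 members and below in 19, 63.3% beside 60.6%, and above colon macrophages in 11 and below in 13, 49% beside 46.4%. Colon macrophages lay above spleen monocytes in 18 members and below in 19, 75.5% beside 63.9%. On the deposited values, F4/80-high TAM thus had more members above than below in each of its comparisons. By mean, 77.6% of members were higher in F4/80-high TAM than in colon macrophages, beside 57.5% of all genes. Against spleen monocytes 61.2% were higher, beside 46.7%. With each array centred on its median, the members' median difference from spleen monocytes was -0.14, beside -0.25 for all genes.

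The pump's membrane sector holds the member with the widest range, Atp6v0d2. It encodes the d2 form of the subunit that joins the rotor to the membrane ring, a form known in mice from osteoclasts and macrophages. Atp6v0d2 had 7.76 and 9.25 in F4/80-high TAM, 6.40 and 6.94 in Ly6C-high TAM, 6.78 and 7.20 in colon macrophages and 5.49 and 5.57 in spleen monocytes. Both F4/80-high TAM arrays lay above all 6 others, although they differed from each other by more than the Ly6C-high TAM or colon replicates did. The mean of Atp6v0d2 over all arrays, 6.92, lay below that of the median gene, 7.405, and its monocyte arrays were the lowest. Its difference of 2.98 ± 0.46 (SE) from spleen monocytes, 7.86-fold, passed (adjusted p = 0.0102), but the call was lost without spleen monocyte replicate 1 (adjusted p = 0.0805) or 2 (adjusted p = 0.0787). The differences of F4/80-high TAM from colon macrophages, 1.52 ± 0.46, and from Ly6C-high TAM, 1.84 ± 0.46, did not pass (adjusted p = 0.085 and 0.247). With the replicate number as a block for the 4 tumour arrays, an alternative added after seeing the data, the difference from Ly6C-high TAM passed (limma adjusted p = 0.0201). The labels do not say what a replicate number marks. Atp6v0d2 was higher on replicate 2 of both tumour populations, like the fibroblast and epithelial marker means, whose part was not tested. Its widespread counterpart Atp6v0d1 had 11.27 and 11.33 in F4/80-high TAM, 11.28 and 11.24 in Ly6C-high TAM, 10.92 and 11.11 in colon macrophages and 11.41 and 11.31 in spleen monocytes. The d1 form differed by -0.06 ± 0.12 between F4/80-high TAM and spleen monocytes and did not pass.

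Among the a subunits, which form the proton path and differ by the membrane they serve, Atp6v0a1 passed. It had 10.97 and 11.06 in F4/80-high TAM, 11.20 and 10.81 in Ly6C-high TAM, 11.18 and 11.04 in colon macrophages and 10.22 and 9.99 in spleen monocytes, so the 2 monocyte arrays lay below the 6 others. Colon macrophages exceeded spleen monocytes by 1.01 ± 0.17, 2.01-fold (adjusted p = 0.00849), a call lost without colon macrophage replicate 1 (adjusted p = 0.0508) or spleen monocyte replicate 2 (adjusted p = 0.0798), or with each array centred on its median, where the difference was 0.73. The part of the epithelial marker signal of the colon arrays in this difference was not tested. The differences from spleen monocytes were 0.91 ± 0.17 for F4/80-high TAM and 0.90 ± 0.17 for Ly6C-high TAM, at adjusted p = 0.0187 and 0.0281, and stayed under the fold limit. Atp6v0a2 had 10.66 and 10.73 in F4/80-high TAM, 10.67 and 10.39 in Ly6C-high TAM, 10.27 and 10.64 in colon macrophages and 10.61 and 10.63 in spleen monocytes, with overlap between most groups. Its 2 probe sets went opposite ways between F4/80-high TAM and colon macrophages, by 0.24 and -0.20, and no difference of it passed. Atp6v0a4, known from kidney, had 6.16 and 6.20 in F4/80-high TAM, 6.25 and 6.35 in Ly6C-high TAM, 6.34 and 6.14 in colon macrophages and 6.25 and 6.19 in spleen monocytes, a signal below that of the median gene throughout. The a3 subunit, known from osteoclasts, is encoded by Tcirg1, a gene outside the naming rule. Tcirg1 had 12.36 and 12.40 in F4/80-high TAM, 12.49 and 12.39 in Ly6C-high TAM, 12.23 and 12.10 in colon macrophages and 12.05 and 12.03 in spleen monocytes, and none of its comparisons passed.

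The other V0 genes moved little. Atp6v0c, which encodes the proteolipid of the proton-carrying ring, was higher than in spleen monocytes by 0.59 ± 0.11 in F4/80-high TAM (adjusted p = 0.0203) and by 0.51 ± 0.11 in Ly6C-high TAM (adjusted p = 0.0461), below the fold limit. Atp6v0b, a second ring subunit, kept its population means within 0.17 of each other. Atp6v0e, a small membrane subunit, had 11.60 and 11.66 in F4/80-high TAM, 11.68 and 11.49 in Ly6C-high TAM, 11.28 and 11.39 in colon macrophages and 11.92 and 11.84 in spleen monocytes, and its other form Atp6v0e2 had 7.14 and 6.82 in F4/80-high TAM, 7.11 and 6.97 in Ly6C-high TAM, 7.68 and 7.64 in colon macrophages and 7.40 and 7.28 in spleen monocytes. The e pair was thus ordered differently between colon macrophages and the rest, since both colon arrays were lowest for Atp6v0e and highest for Atp6v0e2. Atp6v0e2 was lower than in colon macrophages, with differences of -0.68 ± 0.15 in F4/80-high TAM (adjusted p = 0.0317) and -0.62 ± 0.15 in Ly6C-high TAM (adjusted p = 0.0422), and Atp6v0e differed by -0.54 ± 0.12 between colon macrophages and spleen monocytes (adjusted p = 0.0264). All 3 were below the fold limit, and the part of epithelial marker signal in them was not tested.

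None of the 13 genes of the V1 sector passed with the fold limit, although 3 to 7 of them had an unadjusted limma p under 0.05 in each comparison. Atp6v1b2, the widespread form of the ATP-binding B subunit, had 11.91 and 12.03 in F4/80-high TAM, 11.99 and 12.01 in Ly6C-high TAM, 11.53 and 11.36 in colon macrophages and 12.37 and 12.40 in spleen monocytes. Both monocyte arrays were highest, both colon arrays were lowest, and the 4 tumour arrays lay between them. Colon macrophages differed from spleen monocytes by -0.94 ± 0.12 (adjusted p = 0.00302), and F4/80-high TAM and Ly6C-high TAM differed from colon macrophages by 0.53 ± 0.12 and 0.56 ± 0.12 (adjusted p = 0.0349 and 0.0296). Atp6v1b1, the B form known from kidney, had 6.40 and 6.21 in F4/80-high TAM, 6.12 and 5.97 in Ly6C-high TAM, 6.32 and 6.19 in colon macrophages and 6.27 and 6.56 in spleen monocytes. These lay below the signal of the median gene, and none of its differences passed.

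Atp6v1d, a part of the rotor shaft, was higher in F4/80-high TAM than in colon macrophages by 0.69 ± 0.11 (adjusted p = 0.0142) and than in spleen monocytes by 0.75 ± 0.11 (adjusted p = 0.00842). Atp6v1c1, the widespread form of the C subunit, which helps hold the V1 and V0 sectors together, had 10.70 and 10.72 in F4/80-high TAM, 10.40 and 10.10 in Ly6C-high TAM, 10.11 and 10.31 in colon macrophages and 9.84 and 9.91 in spleen monocytes. Its excess over spleen monocytes in F4/80-high TAM was 0.83 ± 0.14 (adjusted p = 0.0148). The second form, Atp6v1c2, had 6.07 and 6.06 in F4/80-high TAM, 5.93 and 5.86 in Ly6C-high TAM, 5.84 and 5.72 in colon macrophages and 6.11 and 6.05 in spleen monocytes, below the median gene.

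The stalk subunits E and G also come in pairs or triplets. Atp6v1e1, the widespread E form, had 11.13 and 10.95 in F4/80-high TAM, 11.17 and 10.87 in Ly6C-high TAM, 10.45 and 10.55 in colon macrophages and 11.05 and 10.93 in spleen monocytes, and both colon arrays were lowest. Atp6v1e2, known from testis, had 7.08 and 6.85 in F4/80-high TAM, 6.81 and 6.71 in Ly6C-high TAM, 7.27 and 7.04 in colon macrophages and 6.96 and 7.15 in spleen monocytes. The E forms did not pass in any comparison. The widespread G form Atp6v1g1 had 10.59 and 10.40 in F4/80-high TAM, 10.35 and 10.16 in Ly6C-high TAM, 10.20 and 10.36 in colon macrophages and 10.35 and 10.42 in spleen monocytes, with its lowest value in Ly6C-high TAM replicate 2. Atp6v1g2, known from brain, had 8.85 and 8.74 in F4/80-high TAM, 8.69 and 8.26 in Ly6C-high TAM, 8.66 and 8.50 in colon macrophages and 8.60 and 8.90 in spleen monocytes. Atp6v1g3, known from kidney, had 5.61 and 5.28 in F4/80-high TAM, 5.48 and 5.45 in Ly6C-high TAM, 5.52 and 5.56 in colon macrophages and 5.52 and 5.66 in spleen monocytes. No G form passed, and Atp6v1g3 stayed below the median gene on every array. The remaining V1 genes, Atp6v1a for the catalytic A subunit, Atp6v1f and the regulatory Atp6v1h, had population means that spanned 0.46, 0.50 and 0.34.

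Of the 3 accessory genes, Atp6ap2 passed. It encodes the (pro)renin receptor, a membrane protein needed for pump assembly, and had 11.94 and 11.51 in F4/80-high TAM, 11.22 and 10.99 in Ly6C-high TAM, 11.49 and 11.39 in colon macrophages and 10.44 and 10.67 in spleen monocytes. Every array of the 3 tissue populations exceeded both monocyte arrays, and both F4/80-high TAM arrays exceeded all others. F4/80-high TAM exceeded spleen monocytes by 1.17 ± 0.18, 2.26-fold (adjusted p = 0.0101), while colon macrophages did so by 0.89 ± 0.18 (adjusted p = 0.0182, under the fold limit). The call in F4/80-high TAM was lost without F4/80-high TAM replicate 1, where the difference was 0.96, or without spleen monocyte replicate 1 (adjusted p = 0.0934) or 2 (adjusted p = 0.0619). With each array centred on its median the difference was 0.95, under the fold limit. Atp6ap1, a second assembly factor, was higher in F4/80-high TAM than in colon macrophages by 0.48 ± 0.11 (adjusted p = 0.0388), and its relative Atp6ap1l did not pass.

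**Figure D2:**
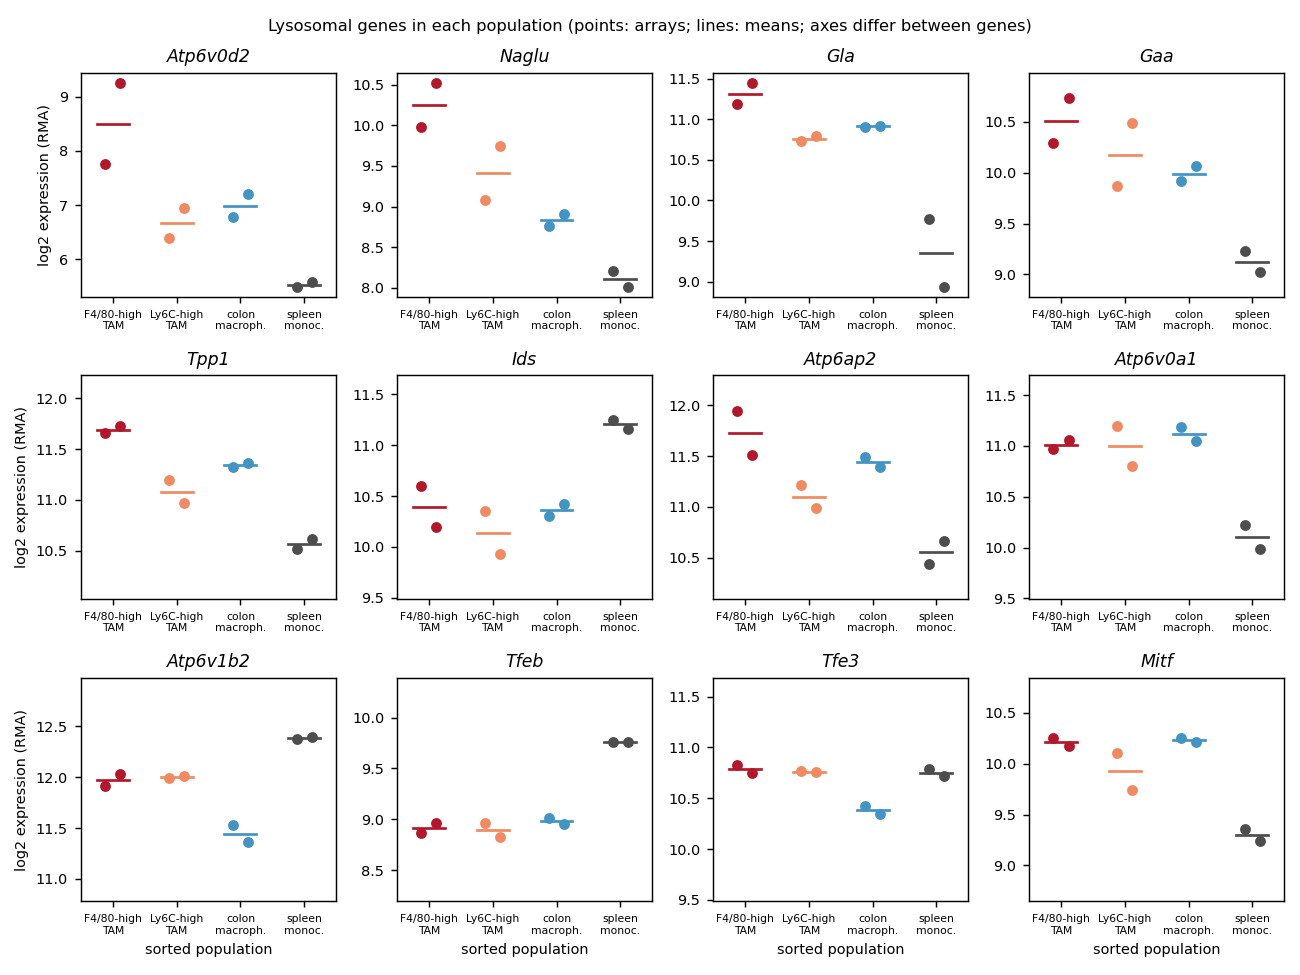
Log2 expression of 12 members on each array by population, with points for arrays and lines for the mean of 2; each panel has its own axis. Naglu, Gla, Gaa, Tpp1 and Atp6ap2 sit lowest in spleen monocytes, Ids and Tfeb highest there, and the 2 arrays of F4/80-high TAM are 7.76 and 9.25 for Atp6v0d2.

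The 11 hydrolases of glycans and glycosaminoglycans held 4 of the 8 members that passed, and 3 of the 4 have an E-box in their promoter. Its core CACGTG is in 25% of the members with a promoter window, beside 8.09% of all genes. Glb1, a glycan hydrolase that did not pass, has it too. The part of the element in any difference was not tested. The promoter windows of Naglu, Gla and Gaa are printed to show these elements, with that of Lamp1, which has 4 of them and was even across the populations. They run from 250 bases before to 50 after the start site, in the gene's own direction, from RefSeq on GRCm38.p6. Capitals mark TCACGTG or its reverse complement CACGTGA. The windows lie at chr11:101069844-101070143 (plus strand) for Naglu, chrX:134600956-134601255 (minus strand) for Gla, chr11:119267713-119268012 (plus strand) for Gaa and chr8:13158911-13159210 (plus strand) for Lamp1.
Naglu: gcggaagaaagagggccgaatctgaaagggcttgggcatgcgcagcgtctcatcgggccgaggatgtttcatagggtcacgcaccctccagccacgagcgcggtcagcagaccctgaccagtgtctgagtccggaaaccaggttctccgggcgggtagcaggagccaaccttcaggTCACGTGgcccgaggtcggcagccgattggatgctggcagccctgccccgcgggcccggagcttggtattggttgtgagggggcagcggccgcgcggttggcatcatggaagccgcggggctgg
Gla: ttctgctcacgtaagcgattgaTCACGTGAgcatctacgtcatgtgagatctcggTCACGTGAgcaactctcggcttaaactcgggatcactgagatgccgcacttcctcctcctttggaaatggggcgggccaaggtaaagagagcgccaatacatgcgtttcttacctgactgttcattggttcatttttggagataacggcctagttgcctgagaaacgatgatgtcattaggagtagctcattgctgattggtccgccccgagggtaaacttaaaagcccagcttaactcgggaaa
Gaa: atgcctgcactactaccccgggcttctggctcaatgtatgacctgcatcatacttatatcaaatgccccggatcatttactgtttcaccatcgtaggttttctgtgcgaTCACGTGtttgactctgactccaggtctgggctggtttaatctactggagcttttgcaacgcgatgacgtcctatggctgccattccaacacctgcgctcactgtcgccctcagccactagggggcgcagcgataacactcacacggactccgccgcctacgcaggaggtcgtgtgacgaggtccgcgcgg
Lamp1: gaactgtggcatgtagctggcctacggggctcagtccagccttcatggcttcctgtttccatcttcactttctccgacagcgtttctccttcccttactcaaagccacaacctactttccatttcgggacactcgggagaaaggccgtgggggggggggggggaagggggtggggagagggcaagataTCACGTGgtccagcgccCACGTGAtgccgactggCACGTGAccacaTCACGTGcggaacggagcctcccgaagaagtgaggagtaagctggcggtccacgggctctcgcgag

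Naglu, which removes N-acetylglucosamine from heparan sulfate, passed in 3 comparisons. It had 9.98 and 10.52 in F4/80-high TAM, 9.08 and 9.75 in Ly6C-high TAM, 8.77 and 8.91 in colon macrophages and 8.21 and 8.01 in spleen monocytes. Its 2 F4/80-high TAM arrays lay above all others and its 2 monocyte arrays below all others, and in both tumour populations replicate 2 was the higher one. F4/80-high TAM exceeded spleen monocytes by 2.14 ± 0.27, 4.39-fold (adjusted p = 0.00459). F4/80-high TAM exceeded colon macrophages by 1.41 ± 0.27, 2.65-fold (adjusted p = 0.0225), and Ly6C-high TAM exceeded spleen monocytes by 1.30 ± 0.27, 2.46-fold (adjusted p = 0.0381). The difference between the tumour populations, 0.83 ± 0.27, did not pass (adjusted p = 0.386). Fibroblast and epithelial marker means were also higher on replicate 2 of both tumour populations, and their part in the result was not tested. With replicate 1 alone for both tumour populations, the excess over spleen monocytes was 1.86 in F4/80-high TAM, which passed, and 0.97 in Ly6C-high TAM, which was under the fold limit.

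With each of the 8 arrays left out in turn, the Naglu call of F4/80-high TAM against spleen monocytes was lost only without spleen monocyte replicate 2 (2.04, adjusted p = 0.052). That against colon macrophages kept a difference of at least 1.14 and was lost without F4/80-high TAM replicate 2 (0.0986), colon macrophage replicate 1 (0.112) or 2 (0.0879), or either spleen monocyte array (0.0581 each), all adjusted p. That of Ly6C-high TAM against spleen monocytes kept a difference of at least 0.97 and was lost without Ly6C-high TAM replicate 2 (0.11), either colon array (0.084 each) or spleen monocyte replicate 1 (0.173) or 2 (0.254), likewise adjusted p.

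Gla, the alpha-galactosidase that is lost in Fabry disease, had 11.18 and 11.44 in F4/80-high TAM, 10.73 and 10.79 in Ly6C-high TAM, 10.91 and 10.91 in colon macrophages and 9.77 and 8.94 in spleen monocytes. All 6 arrays of the tissue populations exceeded both monocyte arrays, which themselves differed by 0.83, more than any other pair of replicates of this gene. It exceeded spleen monocytes by 1.96 ± 0.26 in F4/80-high TAM, 3.89-fold (adjusted p = 0.00585), by 1.41 ± 0.26 in Ly6C-high TAM, 2.65-fold (adjusted p = 0.0267), and by 1.56 ± 0.26 in colon macrophages, 2.94-fold (adjusted p = 0.00864). The call in F4/80-high TAM held with any 1 array left out. That in colon macrophages was lost without colon macrophage replicate 2 (adjusted p = 0.0554). That in Ly6C-high TAM was lost without Ly6C-high TAM replicate 2 (0.0896), either colon array (0.0666 each) or spleen monocyte replicate 2 (0.0843), again adjusted p. Gla lies on the X chromosome, as do Atp6ap2 and Ids among the members that passed, and the sex labels of the 2 monocyte arrays differ. On the arrays labelled male alone, which include 1 array of monocytes, the excess of Gla in F4/80-high TAM was 1.54, and its call was lost.

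Gaa, the acid glucosidase of glycogen that is lost in Pompe disease, had 10.29 and 10.73 in F4/80-high TAM, 9.87 and 10.49 in Ly6C-high TAM, 9.92 and 10.07 in colon macrophages and 9.23 and 9.03 in spleen monocytes. Both monocyte arrays were below the 6 others, and replicate 2 was again the higher one in both tumour populations. F4/80-high TAM exceeded spleen monocytes by 1.39 ± 0.24, 2.61-fold (adjusted p = 0.0159), which was lost without F4/80-high TAM replicate 2 (0.0895) or spleen monocyte replicate 1 (0.0876) or 2 (0.128), all adjusted p. The excess in Ly6C-high TAM, 1.05 ± 0.24, and in colon macrophages, 0.87 ± 0.24, did not pass (adjusted p = 0.0549 and 0.0537).

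Ids, the sulfatase that removes sulfate from heparan and dermatan sulfate and is lost in Hunter disease, went the other way. It had 10.60 and 10.19 in F4/80-high TAM, 10.35 and 9.93 in Ly6C-high TAM, 10.30 and 10.42 in colon macrophages and 11.25 and 11.16 in spleen monocytes, and both monocyte arrays exceeded all others. Ly6C-high TAM was 2.09-fold lower than spleen monocytes, a log2 difference of -1.07 ± 0.20 (adjusted p = 0.0263). F4/80-high TAM and colon macrophages differed from spleen monocytes by -0.81 ± 0.20 and -0.85 ± 0.20 (adjusted p = 0.0461 and 0.0282), under the fold limit. The call in Ly6C-high TAM was lost without Ly6C-high TAM replicate 2 (0.0887), either colon array (0.0614 each) or spleen monocyte replicate 1 (0.187) or 2 (0.162), all adjusted p. In a fit of the 4 arrays of Ly6C-high TAM and spleen monocytes alone, the calls for Ids (0.0833), Gla (0.126) and Naglu (0.113) were all lost, and that for Naglu was also lost after quantile normalisation (adjusted p = 0.0641). Enzymes of heparan sulfate breakdown thus differed in direction, since Naglu was higher and Ids lower in Ly6C-high TAM than in spleen monocytes.

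The other 7 glycan hydrolases did not pass with the fold limit. Hexa, a subunit of beta-hexosaminidase, was lower in Ly6C-high TAM than in colon macrophages, with a difference of -0.59 ± 0.15 (adjusted p = 0.0493). Idua, which removes iduronic acid, was 0.82 ± 0.24 higher in F4/80-high TAM than in Ly6C-high TAM and 0.85 ± 0.24 higher than in spleen monocytes, but neither value passed (adjusted p = 0.319 and 0.067). Glb1, the beta-galactosidase, Gusb, the beta-glucuronidase, Man2b1 and Manba, the alpha- and beta-mannosidases, and Neu1, a sialidase, had population means that spanned between 0.37 for Neu1 and 0.60 for Glb1.

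Tpp1, a peptidase that removes tripeptides, passed among the protein hydrolases. It had 11.65 and 11.73 in F4/80-high TAM, 11.19 and 10.97 in Ly6C-high TAM, 11.33 and 11.37 in colon macrophages and 10.52 and 10.62 in spleen monocytes. The 4 populations did not overlap on this gene, with F4/80-high TAM highest, colon macrophages next, then Ly6C-high TAM and spleen monocytes. F4/80-high TAM exceeded spleen monocytes by 1.12 ± 0.13, 2.18-fold (adjusted p = 0.00286), and the call held with any 1 array left out but not with each array centred on its median, where the difference was 0.89. Colon macrophages exceeded spleen monocytes by 0.78 ± 0.13 (adjusted p = 0.00762, under the fold limit), and the excess in Ly6C-high TAM, 0.51 ± 0.13, did not pass (adjusted p = 0.0661). Ppt1, which removes palmitate from proteins, did not pass in any comparison.

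The lipid hydrolases and their activators were even. Asah1, the acid ceramidase, Psap, the precursor of the saposins, and Gm2a, the activator of GM2 ganglioside breakdown, had population means that spanned 0.21, 0.28 and 0.31. Smpd1, the acid sphingomyelinase, spanned 0.67, and its 2 colon arrays of 9.09 and 9.81 differed by more than its F4/80-high TAM, Ly6C-high TAM or monocyte arrays did. None of the 4 passed in any comparison, with at most 2 at an unadjusted limma p under 0.05. The membrane proteins were as even, with spans of 0.12 for Lamp1 and 0.22 for Lamp2, both abundant glycoproteins of the lysosomal membrane. Npc1, which exports cholesterol, was higher in F4/80-high TAM than in spleen monocytes by 0.59 ± 0.13 (adjusted p = 0.0369), and Mcoln1, the calcium channel that signals to TFEB, by 0.46 ± 0.11 (adjusted p = 0.0427), both under the fold limit.

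**Figure D3:**
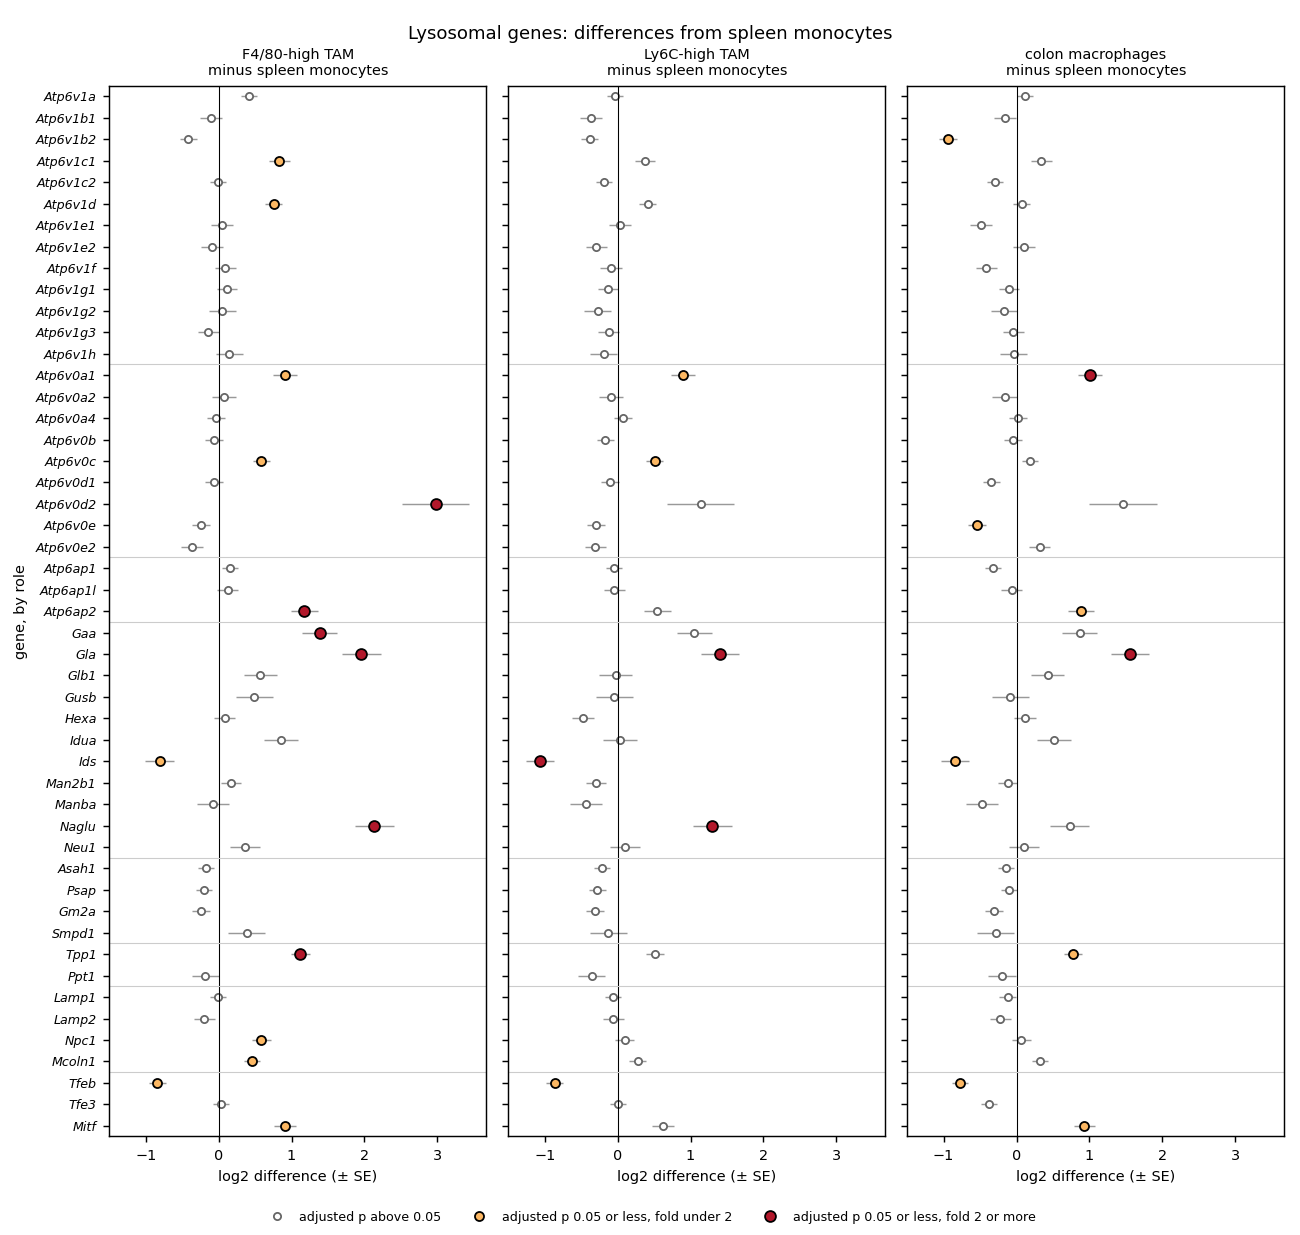
Log2 difference from spleen monocytes of F4/80-high TAM, Ly6C-high TAM and colon macrophages for the 49 genes, with SE bars. Red points passed with the fold limit (6, 3 and 2 members), orange points reached an adjusted p of 0.05 with less than a 2-fold difference, and white points did not reach it.

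The MiT factors moved in different directions. Tfeb had 8.87 and 8.96 in F4/80-high TAM, 8.96 and 8.82 in Ly6C-high TAM, 9.01 and 8.96 in colon macrophages and 9.76 and 9.76 in spleen monocytes, with both monocyte arrays above all others. It was lower than in spleen monocytes, with differences of -0.84 ± 0.11 in F4/80-high TAM and of -0.87 ± 0.11 in Ly6C-high TAM, and -0.78 ± 0.11 in colon macrophages (adjusted p = 0.00623, 0.00779 and 0.00542). All 3 were under the fold limit. Mitf had 10.26 and 10.17 in F4/80-high TAM, 10.11 and 9.74 in Ly6C-high TAM, 10.25 and 10.21 in colon macrophages and 9.36 and 9.24 in spleen monocytes, with both monocyte arrays below all others. It was higher than in spleen monocytes by 0.91 ± 0.15 in F4/80-high TAM (adjusted p = 0.0123) and 0.93 ± 0.15 in colon macrophages (adjusted p = 0.0075), and the 0.62 ± 0.15 in Ly6C-high TAM did not pass (adjusted p = 0.0616). A second Mitf probe set of low signal, with a mean of 4.01, differed by -0.09 between F4/80-high TAM and spleen monocytes. Tfe3 had 10.83 and 10.75 in F4/80-high TAM, 10.77 and 10.76 in Ly6C-high TAM, 10.42 and 10.34 in colon macrophages and 10.79 and 10.72 in spleen monocytes, with the colon arrays lowest, and no difference of it passed. RNA levels of these factors do not show where in the cell the proteins are.

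The 2 tumour populations were compared to ask how cells within a tumour differ. Among the members 44 of 49 were higher on average in F4/80-high TAM, beside 13104 of 21442 genes, and the members' median difference was 0.21, beside 0.05 for all genes. All 11 glycan hydrolases were higher on average, by 0.26 to 0.83. Both F4/80-high TAM arrays exceeded both Ly6C-high TAM arrays in 25 members and were below them in 1, Atp6v0a4, so that 53.1% of members did not overlap, beside 29.8% of all genes. The 25 held 8 of 13 V1 genes, 2 of 9 V0 genes, 2 of 3 accessory genes, 7 of 11 glycan hydrolases and 1 of 3 MiT factors. None of these differences passed in limma, and the lowest adjusted p was 0.174, for Tpp1. Same-numbered tumour arrays deviated from their group means together, with a correlation of 0.77 over genes. With the replicate number as a block for the tumour arrays, an alternative added after seeing the data, 1 member passed, Atp6v0d2 (1.84, adjusted p = 0.0201), beside 1.17% of all genes, and 19 members had an unadjusted p under 0.05, beside 17% of all genes. The count of members higher on average was 36 without Ly6C-high TAM replicate 2, and with each array centred on its median it was 35. Ly6C-high TAM replicate 2 also had the highest mean of the fibroblast markers, 10.04, and its part in the result beyond these counts was not tested. Relative to the median of all genes, 37 members were higher in F4/80-high TAM as deposited and with centring, and 43 after quantile normalisation.

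**Figure D4:**
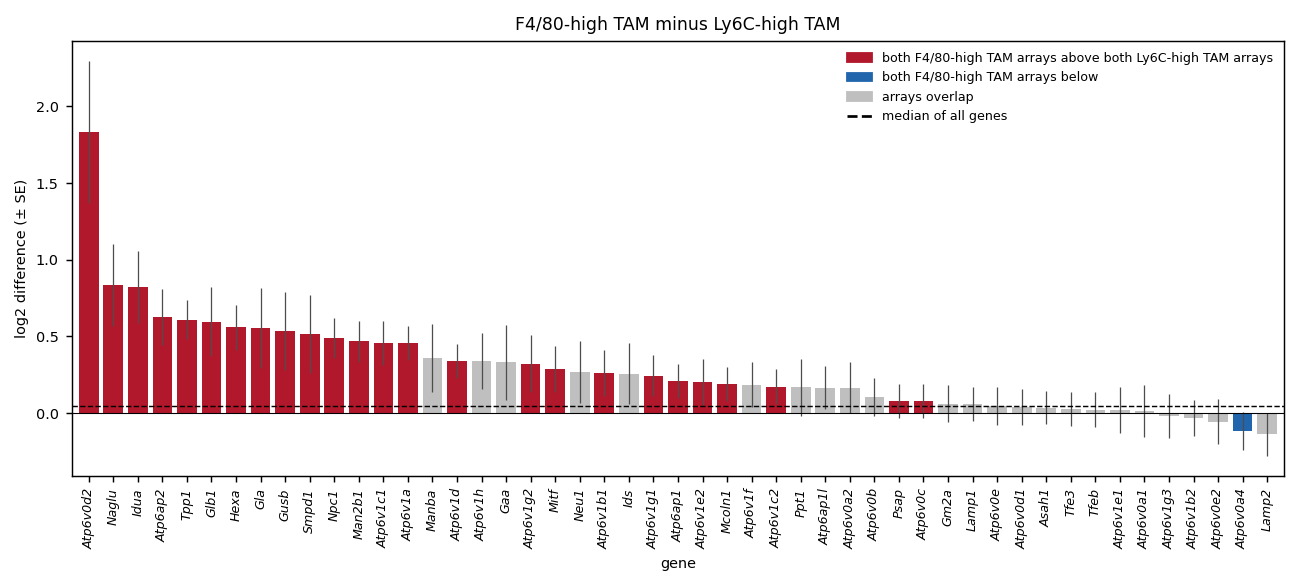
Log2 difference of F4/80-high TAM minus Ly6C-high TAM for each of the 49 genes, sorted, with SE bars; the dashed line is the median of all genes, 0.05. Red bars mark the 25 members with both F4/80-high TAM arrays above both Ly6C-high TAM arrays, blue the 1 below, and grey those that overlap.

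Across all 4 populations, F4/80-high TAM had the highest mean in 27 members, a share of 55.1%, beside 25.3% of all genes and 31.5% of genes above the median signal. Ly6C-high TAM had the highest mean in 1 member, 2.04% beside 13.3% of all genes, colon macrophages in 5, 10.2% beside 22%, and spleen monocytes in 16, 32.7% beside 39.4%. The lowest mean was that of F4/80-high TAM in 3 members, 6.12% beside 15.4%, and of spleen monocytes in 15, 30.6% beside 22%. It was that of Ly6C-high TAM in 15 members, 30.6% beside 29.7%, and of colon macrophages in 16, 32.7% beside 32.8%, both close to the share of all genes. Among genes above the median signal, however, the lowest mean was that of Ly6C-high TAM in 17.5% and of colon macrophages in 42%. It was that of F4/80-high TAM in 13.1% of these genes and of spleen monocytes in 27.4%. Against colon macrophages the members' median difference in F4/80-high TAM was 0.26, beside 0.05 for all genes. Among genes above the median signal it was 0.29 for the 41 members there and 0.19 for all, and 26 of the 41 exceeded that value. Against spleen monocytes it was 0.09 in F4/80-high TAM, beside -0.02 for all genes. Centring each array on its median moved the median of all genes in the comparison of F4/80-high TAM with spleen monocytes to -0.25 and that of the members to -0.14, and 32 members lay above the median of all genes either way. The interaction, which asks whether F4/80-high TAM minus colon macrophages differs from Ly6C-high TAM minus spleen monocytes, was positive and passed for 2 members, Atp6v1b2 and Tfeb, and negative for 0, with 3 negative at an unadjusted limma p under 0.05. With no fold limit it was positive in 3.12% and negative in 3.44% of all genes.

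The E-box elements were found in a minority of the members. Of the 49 members 40 had promoter windows, and the other 9 were Asah1, Atp6ap1l, Atp6v0a2, Atp6v0d2, Atp6v1b2, Atp6v1c1, Atp6v1g1, Atp6v1h and Npc1. The sequence CACGTG, which reads the same on both strands, was in 10 of the 40 members, 25%, and in 20.4% of their 49 windows, beside 7.15% of all 32817 windows. The longer TCACGTG, on either strand and always overlapping a CACGTG, was in the same 10 members, beside 3.76% of all windows. The 10 were Atp6v0b, Atp6v0d1, Atp6v0e, Atp6v1a, Gaa, Gla, Glb1, Lamp1, Mcoln1 and Naglu. Their median difference between F4/80-high TAM and spleen monocytes was 0.44, with 3 called, beside 0.05 and 2 called in the 30 members without the sequence. Between Ly6C-high TAM and spleen monocytes the medians were -0.03 and -0.11. Colon macrophages also differed from spleen monocytes by a higher median in members with the sequence, 0.219 beside -0.115 in those without. Between F4/80-high TAM and colon macrophages the medians were 0.289 and 0.24. These are descriptions of letters in a window and carry no test.

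Other lysosomal genes, from lists that do not contain the members, were examined in the same fit. A further list held 26 genes, mostly hydrolases and cofactors. In F4/80-high TAM against spleen monocytes 5 of them rose and 0 fell, 19.2% higher beside 4.58% of all genes. The 5 include Gpnmb, a membrane glycoprotein and not a hydrolase, which had the largest difference in the list, 3.13. Against colon macrophages 3 rose and 0 fell, 11.5% beside 2.67%. Of the genes above the median signal, 11.8% and 8.11% passed in these comparisons in either direction. Acp5, the tartrate-resistant acid phosphatase, had 11.82 and 12.02 in F4/80-high TAM, 10.84 and 10.74 in Ly6C-high TAM, 12.12 and 12.19 in colon macrophages and 9.58 and 9.57 in spleen monocytes. It was higher in F4/80-high TAM than in Ly6C-high TAM by 1.13 ± 0.12 (adjusted p = 0.033), a comparison in which no member passed without the block. Hyal1, a hyaluronidase, exceeded spleen monocytes by 2.30 ± 0.22 and colon macrophages by 1.46 ± 0.22 in F4/80-high TAM (adjusted p = 0.00156 and 0.0118). Hgsnat, which acts beside Naglu in heparan sulfate breakdown, was lower in Ly6C-high TAM than in spleen monocytes, with a difference of -1.47 ± 0.19 (adjusted p = 0.00731).

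Of 30 other lysosomal membrane proteins, 4 rose and 1 fell in F4/80-high TAM against spleen monocytes, 13.3% and 3.33% beside 4.58% and 2.37% of all genes. Cd63, a tetraspanin of late endosomes, had 11.48 and 11.46 in F4/80-high TAM, 10.18 and 10.83 in Ly6C-high TAM, 11.80 and 12.03 in colon macrophages and 6.66 and 6.69 in spleen monocytes, a difference of 4.79 ± 0.22 (adjusted p = 0.000127) between F4/80-high TAM and spleen monocytes. Of 13 genes that sort hydrolases to the lysosome, 2 rose and 1 fell in the same comparison, 15.4% and 7.69% beside 4.58% and 2.37%. In F4/80-high TAM Igf2r, a mannose 6-phosphate receptor, was 2.02 ± 0.41 higher than in spleen monocytes. Sort1, sortilin, differed by -3.14 ± 0.29 (limma adjusted p = 0.0262 and 0.00131). The other gene that rose was Gga2, with means of 9.42 and 8.16. The second mannose 6-phosphate receptor, M6pr, had means of 12.23 and 12.09. Tfec, the fourth gene of the MiT family, which lay outside the members, had 11.80 and 11.15 in F4/80-high TAM, 12.01 and 11.44 in Ly6C-high TAM, 10.52 and 10.41 in colon macrophages and 10.45 and 10.26 in spleen monocytes. It was 1.37 ± 0.26 higher in Ly6C-high TAM than in spleen monocytes and 1.12 ± 0.26 higher in F4/80-high TAM (adjusted p = 0.0311 and 0.0419). The 11 partners of the pump outside the naming rule and the 12 subunits of the mitochondrial ATP synthase had no gene past the threshold in any of the 6 comparisons (limma), although up to 7 and up to 4 of them had an unadjusted p under 0.05, and the 20 autophagy genes had 1 higher and 1 lower, both in colon macrophages against spleen monocytes.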

How the data were processed

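The deposited values are log2 expression that the authors made with RMA, which corrects background, normalises arrays and summarises probes, and Partek 6.6, per the submitters' processing notes. No genome build is named in the sources used. Symbols came from the deposited annotated table and were updated through RefSeq accessions (GRCm38.p6), which matched 21020 of 24692 named probe sets, and 10864 probe sets had no symbol. That table's 8 value columns, whose headings match no sample label, were not used.

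Differences were fitted with limma 3.58.1 (R 4.3.3) on 21442 genes and all 8 arrays, with a mean per population (4 residual and 2.64 prior degrees of freedom) and Benjamini-Hochberg adjustment within each comparison. The 6 pairwise comparisons and the limits of 5% and 2-fold follow the submitters' design. Array medians were 6.84 to 7.07, and the number of arrays limits precision. Errors are SE of the fit. The fit was tested on simulated data. Alternatives covered scaling, filters, probe sets, sex, replicate blocks and leaving out arrays.

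Members and gene lists were chosen with earlier results of these data known. Array values are given for members that passed, the MiT factors and alternative subunit forms, and other lists name up to 4 passing genes each.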

Additional observations from a re-analysis of the deposited data

Results flagged for a closer look

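In 2 members the effect differed between the contrasts of the tumour populations with steady-state cells. For Atp6v1b2, F4/80-high TAM minus colon macrophages exceeded Ly6C-high TAM minus spleen monocytes by 0.91 ± 0.17 (SE, adjusted p = 0.0299). F4/80-high TAM was above colon macrophages by 0.53, and Ly6C-high TAM differed from spleen monocytes by -0.38. For Tfeb the interaction was 0.80 ± 0.16 (adjusted p = 0.0387), made up of -0.07 for F4/80-high TAM minus colon macrophages and -0.87 for Ly6C-high TAM minus spleen monocytes. The same interaction also equals F4/80-high TAM minus Ly6C-high TAM less colon macrophages minus spleen monocytes, and for both genes the tumour populations lay within 0.03 of each other. The median interaction of all genes was 0.14 and that of the members 0.33. The call for Atp6v1b2 was lost without any of 6 arrays, with an adjusted p of up to 0.155, and kept without Ly6C-high TAM replicate 1 or colon macrophage replicate 1. That for Tfeb was lost without any of 7 arrays, with an adjusted p of up to 0.177, and kept without Ly6C-high TAM replicate 1, and it was also lost after quantile normalisation (adjusted p = 0.0893). Neither passed on the arrays labelled male alone. The mean of 24 epithelial markers was 10.82 and 11.58 in colon macrophages, and its part in either result was not tested.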

How the results depend on the processing

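With 2 arrays a group, a missed threshold shows no equality, and counts of passing members moved by a few genes. No named call changed direction. Deviations of same-numbered arrays correlated at 0.77 between F4/80-high TAM and Ly6C-high TAM, 0.22 and 0.26 between these and colon macrophages, and -0.06 to -0.16 with spleen monocytes. Same-numbered tumour arrays thus moved together, while the numbers did not pair all 4 populations, and the labels do not say what a number marks. A replicate block gave 2 members higher in F4/80-high TAM than in colon macrophages, 3 higher and 1 lower in Ly6C-high TAM than in spleen monocytes, 3 higher in colon macrophages than in spleen monocytes, and 3 positive and 1 negative interactions. With a replicate block that took in only the tumour arrays, an alternative added after seeing the data, the fit gave 2 members higher in F4/80-high TAM than in colon macrophages, 1 higher than in Ly6C-high TAM, 4 higher in Ly6C-high TAM than in spleen monocytes, 3 higher in colon macrophages than in spleen monocytes, and 6 positive and 2 negative interactions. Between the tumour populations this block raised the share of all genes that passed from 0.266% to 1.17%. Shares of all genes are not given for the other counts of this section, so these counts do not set the members apart from other genes.

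Centring each array on its median gave 2 members higher in F4/80-high TAM than in colon macrophages, 4 higher and 2 lower in F4/80-high TAM than in spleen monocytes, 2 lower in Ly6C-high TAM than in spleen monocytes, and 1 higher and 3 lower in colon macrophages than in spleen monocytes. Quantile normalisation gave 1 higher in Ly6C-high TAM than in spleen monocytes and 1 positive and 1 negative interaction. Genes above the median signal gave 3 higher in Ly6C-high TAM than in spleen monocytes and 1 negative interaction. Fitting only the arrays of the comparison gave 0 higher and 0 lower in Ly6C-high TAM than in spleen monocytes and 3 higher in colon macrophages. Without replicate 2 of both tumour populations, 1 member was higher and 0 lower in Ly6C-high TAM than in spleen monocytes, 3 were higher in colon macrophages, and 1 positive and 1 negative interaction passed. Arrays labelled male alone gave 0 calls among members in every comparison and interaction (limma), with 12 members higher and 2 lower in F4/80-high TAM than in spleen monocytes at an unadjusted p under 0.05. This fit has 2 residual degrees of freedom and 1 array each of colon macrophages and spleen monocytes, assumed to vary like the tumour arrays.

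Without the fold limit, F4/80-high TAM gave 4 higher and 1 lower against colon macrophages and 13 and 2 against spleen monocytes. Ly6C-high TAM gave 4 and 2 against spleen monocytes and 1 and 2 against colon macrophages, and colon macrophages gave 5 and 4 against spleen monocytes. Leaving out each array in turn gave 0 to 2 members higher in F4/80-high TAM than in colon macrophages, and 2 to 6 higher than in spleen monocytes. It gave 0 to 3 higher and 0 to 1 lower in Ly6C-high TAM than in spleen monocytes, 1 to 3 higher and 0 to 1 lower in colon macrophages than in spleen monocytes, and 0 to 6 positive and 0 to 1 negative interactions.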
